A study of Homo sapiens with 9 samples.

Results

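Interferon-stimulated genes were followed in cultured OVCAR4 cells, a long-established human line from high-grade serous ovarian carcinoma. The group was a list of 33 symbols. Each was found in the count table by its Ensembl gene ID with the version removed, giving 33 of the 61487 genes counted. RNA had been sequenced from 3 groups of 3 libraries. Naive cells had received DMSO, Pt-resistant cells had received DMSO, and the inhibitor-treated group was the same Pt-resistant cells given EPZ015666 at 5 µM for 5 days. EPZ015666 inhibits the arginine methyltransferase PRMT5. According to the study's methods, the Pt-resistant cells were derived from the naive line by continuous exposure to cisplatin, a platinum drug. Some figure legends of the study call resistant OVCAR4 cells carboplatin-resistant. All groups therefore share 1 line and a single derivation, and no naive cells with the inhibitor were analysed here. The labels give every group the genotype WT and list no other agent. The wells were seeded in triplicate, nothing says that they were separate cultures, and the p-values below measure the spread between these libraries, which may be technical.

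Interferons are secreted proteins that bind receptors on the cell surface. The receptors of type I and type III interferons act through the kinases JAK1 and TYK2, which phosphorylate STAT proteins. Type I and type III interferons drive a complex that holds STAT2 and IRF9, which binds a short promoter element, the interferon-stimulated response element, and raises the transcription of a large set of antiviral genes. In tumor cells a subset of these genes can be expressed without added interferon, and the set has been described in cells that survive DNA-damaging treatment.

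The letters of that element were first read in the promoters. RefSeq promoters on GRCh38.p14, each 250 bases before and 50 bases after a transcription start, were found for 26 of the 33 genes, in 36 windows. No entry was matched for IFIT2, OAS2, OASL, MX2, IRF7, USP18 or IFITM2. The core letters of the element, GAAA, any 2 bases and GAAA again, were searched on both strands (TTTC, any 2 bases and TTTC on the other), with matches allowed to overlap each other. They were found in 20 of the 26 genes (76.9%). The same letters were found in 4.38% of the 27305 genes with a window of the same length, and in 3.85% of the 10975 such genes that entered the expression test. By window the share was 66.7% of 36 against 3.57% of all 35116. The letters TTCNNNGAA, which read the same on both strands and spell an element bound by STAT dimers, were in 8 of the 26 genes (30.8%), against 9.38% of all genes. A match describes the letters of a window and is not a binding site.

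The 250 bases before the start are shown for 5 genes, 1 that fell with the inhibitor by a large margin, 1 that moved little, and 3 that rose, so that their letters can be read beside their values. All 5 lie on the plus strand of GRCh38.p14 and are printed 5′ to 3′, with matches to the GAAA pair on either strand in capitals. IFIT1 (ENSG00000185745.10) was read at chr10:89392373-89392622, ISG15 (ENSG00000187608.10) at chr1:1013247-1013496, OAS3 (ENSG00000111331.14) at chr12:112938224-112938473, HERC5 (ENSG00000138646.9) at chr4:88456869-88457118 and OAS1 (ENSG00000089127.15) at chr12:112906712-112906961.
IFIT1: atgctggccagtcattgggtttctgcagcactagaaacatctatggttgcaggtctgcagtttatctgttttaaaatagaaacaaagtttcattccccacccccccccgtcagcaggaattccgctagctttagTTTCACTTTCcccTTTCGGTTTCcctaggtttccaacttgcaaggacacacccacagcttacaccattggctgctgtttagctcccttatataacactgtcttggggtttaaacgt
ISG15: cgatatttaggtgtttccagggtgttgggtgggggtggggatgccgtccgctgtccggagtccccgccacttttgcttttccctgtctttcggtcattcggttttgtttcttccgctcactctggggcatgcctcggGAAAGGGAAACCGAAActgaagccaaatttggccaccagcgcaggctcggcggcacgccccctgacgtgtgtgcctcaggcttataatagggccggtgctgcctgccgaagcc
OAS3: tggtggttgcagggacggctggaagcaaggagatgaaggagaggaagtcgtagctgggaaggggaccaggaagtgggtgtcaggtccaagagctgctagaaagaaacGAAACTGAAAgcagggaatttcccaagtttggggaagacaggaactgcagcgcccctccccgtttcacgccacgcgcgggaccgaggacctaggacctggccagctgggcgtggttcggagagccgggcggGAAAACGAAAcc
HERC5: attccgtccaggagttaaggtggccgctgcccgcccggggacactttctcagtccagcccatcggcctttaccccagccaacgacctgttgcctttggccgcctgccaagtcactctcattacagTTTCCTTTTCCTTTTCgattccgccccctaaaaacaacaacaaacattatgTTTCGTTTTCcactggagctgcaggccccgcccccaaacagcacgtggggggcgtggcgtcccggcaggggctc
OAS1: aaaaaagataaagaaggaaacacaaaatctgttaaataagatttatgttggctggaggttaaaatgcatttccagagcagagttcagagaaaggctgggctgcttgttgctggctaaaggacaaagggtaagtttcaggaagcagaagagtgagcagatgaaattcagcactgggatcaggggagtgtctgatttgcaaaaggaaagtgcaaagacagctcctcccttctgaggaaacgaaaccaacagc
The IFIT1 window holds matches on the other strand, 116 to 107 and 103 to 94 bases before the start. OAS3, whose RNA moved the opposite way with the inhibitor, holds matches 143 to 134 and 12 to 3 bases before its start. HERC5 holds 3 matches and ISG15 holds 2 that overlap. The OAS1 window holds none at this spacing, and has TTCNNNGAA 168 to 160 bases before the start. Near the end of its printed letters stands GAAA, a single base and GAAA again, a spacing that was not searched.

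Shorter stretches around a match are shown for other genes of the group to let the spacing be compared. They are IFIT3 at chr10:89332429-89332450, IFI27 at chr14:94110622-94110656, IFITM1 at chr11:313994-314015, RSAD2 at chr2:6877626-6877647 on the plus strand, and BST2 at chr19:17405739-17405766, DDX60 at chr4:168318825-168318846 and IFI6 at chr1:27672333-27672354 on the minus strand, each read along its own gene in GRCh38.p14.
IFIT3: attctgTTTCAGTTTCccctca
IFI27: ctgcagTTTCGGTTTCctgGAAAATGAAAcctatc
IFITM1: cagcagGAAATAGAAActtaag
RSAD2: ttcaacTTTCAGTTTCacatgt
BST2: ttctggGAAACTGAAACTGAAAacctaa
DDX60: tgaaggGAAACTGAAAcctaag
IFI6: agagggGAAAATGAAActctgc
BST2 carries overlapping matches in 1 run, and IFI27 has a match on each strand a few bases apart. The windows of CMPK2, IFI35, IRF9, OAS1, STAT2 and XAF1 hold no match, which says only that these letters are not in those windows. In OAS1 and IFI35, among others, GAAA, a single base and GAAA again stands before the start, a spacing that was not searched.

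**Figure D1:**
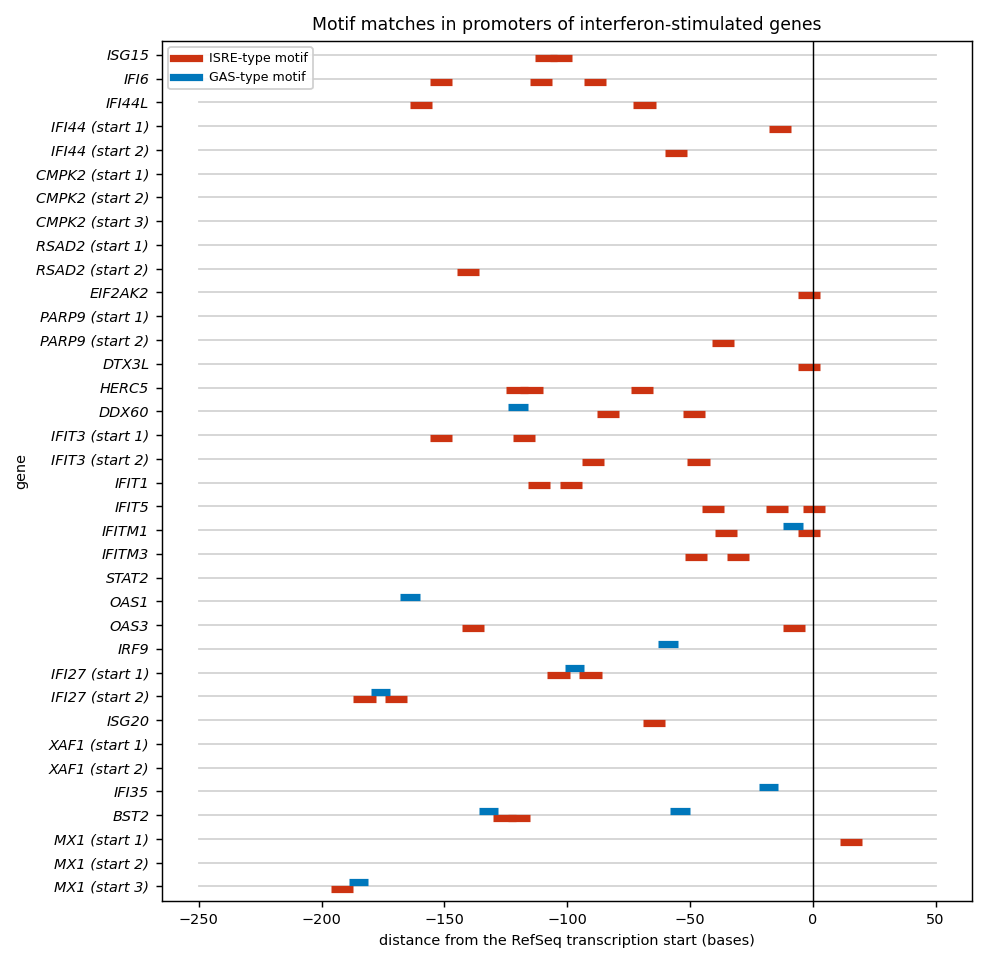
Positions of the GAAA pair (ISRE-type motif, red) and of TTCNNNGAA (GAS-type motif, blue) in the promoter windows of the interferon-stimulated genes, with the distance from the transcription start in bases on the x axis and 1 row per window. The GAAA pair was found in 20 of 26 genes and in 24 of 36 windows.

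Totals ranged from 14320929 to 19114811 counts per library, and the 33 genes together held 0.082% to 0.108% of them. The line's markers PAX8, MUC16, EPCAM, KRT8 and KRT18 were present in all 9 libraries, whereas WT1 had 2 to 8 counts. Among immune markers, LILRA4 and CLEC4C, which define plasmacytoid dendritic cells, were at 0 in all 9 libraries. The 8 immune markers summed to 3.02 to 4.54 CPM (counts relative to library totals scaled by the TMM method) in naive cells, 0.661 to 0.905 in Pt-resistant cells and 3.45 to 5.15 in inhibitor-treated cells. The 5 stromal markers, mostly PECAM1, summed to 101.0 to 108 CPM, 58.9 to 65.9 CPM and 50.4 to 60.8 CPM. COL1A1 did not follow this sum, with means of 6.94 ± 1.29 CPM (SD, n = 3) in naive, 3.83 ± 0.365 in Pt-resistant and 10.2 ± 1.78 in inhibitor-treated cells. The part of these markers in the results below was not tested. Pt-resistant replicate 2 stood apart for the interferon-stimulated genes. It was the highest of its group in 23 of the 30 genes tested, with a median deviation of 0.17 on the log2 scale, and results that rest on it are given without it as well.

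Of the 33 genes, 30 had enough counts to be tested. MX2, an antiviral GTPase, had 0 to 2 counts per library, and CMPK2, a mitochondrial nucleotide kinase, had 0 to 12. IRF9, the DNA-binding part of the STAT complex, had 0 counts in all 9 libraries, which with 151516112 counts in all allows a level of up to 0.0198 CPM (3 counts, counting error only). In GENCODE 29, 48.4% of the IRF9 exon bases lie in exons of another gene on the same strand, AL136295.5. GENCODE 29 may not be the annotation used, and the part of this overlap in the 0 was not tested. RSAD2 entered the test only through its Pt-resistant libraries, so its differences from them are given as a description, and counts are given without it as well.

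Levels between genes were compared as CPM per kilobase of annotated exon. BST2, IFITM3, ISG15 and IFITM2 held the first 4 places in this order in all 3 groups. BST2 stood at 236.5 CPM per kilobase in naive cells, 280.3 in Pt-resistant cells and 195.6 in inhibitor-treated cells. IFIT1 was 13th in naive cells, 9th in Pt-resistant cells and 19th in inhibitor-treated cells, while HERC5 was 11th, 13th and 5th. BST2 and IFITM3 together held 57.2% to 59.1% of the group's counts in naive cells, 46.2% to 47.1% in Pt-resistant cells and 45.7% to 48.5% in inhibitor-treated cells. The other 31 genes summed to 354.8 ± 12.3 CPM (SD, n = 3) in naive cells, 531.7 ± 43.3 in Pt-resistant cells and 493.3 ± 9.34 in inhibitor-treated cells. In such bulk samples, fewer cells expressing a gene and less RNA per cell cannot be told apart.

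Pt-resistant and naive cells were compared first, to ask how the genes differed after platinum selection. Of the 30 genes, 16 rose, 2 fell and 12 did not pass the test (quasi-likelihood test of edgeR, with p-values adjusted over 14630 genes and a threshold of 0.05). IFIT1, IFIT2, RSAD2, IFI44, IFI6, IFI27, DDX60 and IFI35 rose at least 2-fold, and the 2 that fell were the membrane proteins IFITM1 and IFITM3. Over all genes tested, 29.8% rose and 29.4% fell, and 6.73% rose and 9.13% fell at least 2-fold. All 3 Pt-resistant libraries lay above all 3 naive libraries in 17 of the 30 genes and below them in 1, beside 31.2% and 31.3% of all genes. The median log2 fold change was 0.49 over the 30 genes and 0.01 over all genes. Leaving out RSAD2, 15 of 29 genes rose, 7 of them at least 2-fold, and the median was 0.40. Without Pt-resistant replicate 2, 14 rose and 2 fell, and the median was 0.37.

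EPZ015666 and DMSO were then compared in Pt-resistant cells, to ask how the same genes stood with PRMT5 inhibited. Of the 30 genes, 8 rose (OAS1, OAS3, HERC5, IFITM1, IFITM2, IFITM3, EIF2AK2 and DTX3L), 13 fell (IFIT1, IFIT2, IFIT3, OASL, MX1, ISG15, BST2, RSAD2, IFI6, IFI27, IFI35, IFI44 and STAT2) and 9 did not pass. The 26.7% of the group that rose stood beside 31.9% of all genes, and the 43.3% that fell beside 30.5%. Changes in both directions were thus common to the group and to all genes tested. OAS1, OAS3, HERC5 and IFITM1 rose at least 2-fold, as did 11.4% of all genes, and IFIT1, IFIT2, OASL and RSAD2 fell at least 2-fold, as did 6.51%. The treated libraries lay wholly above the DMSO libraries in 9 genes and wholly below in 11, beside 33.7% and 32.8% of all genes. The median log2 fold change was -0.26, beside 0.0057 over all genes. Leaving out RSAD2, 12 of 29 genes fell, 3 of them at least 2-fold, and the median was -0.25. Without Pt-resistant replicate 2, 8 rose and 10 fell, and the median was -0.11.

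Inhibitor-treated cells were also set against naive cells. Here 15 of the 30 genes were higher, 6 were lower (IFIT1, IFIT2, OASL, MX1, BST2 and STAT2) and 9 did not pass, against 32.2% higher and 31.2% lower over all genes. At least 2-fold, 7 were higher and 1, OASL, was lower, beside 10.7% and 9.15% of all genes. The libraries did not overlap in 17 higher and 6 lower genes, beside 33.6% and 32.8% of all genes. The median was 0.41 over the 30 genes. The comparisons share libraries (the Pt-resistant group stands in the first and the second), so their values are given side by side and no relation between them was tested.

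**Figure D2:**
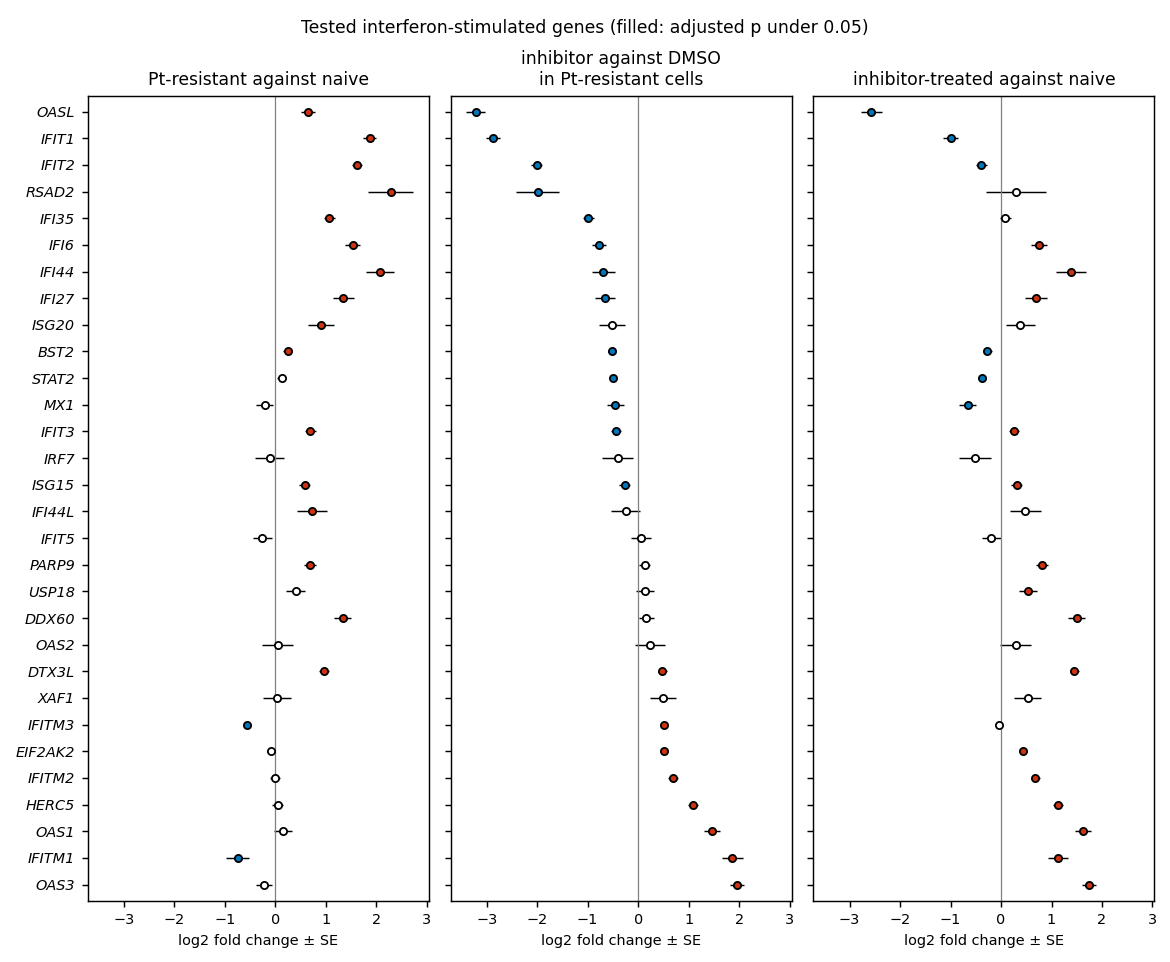
Log2 fold changes of the 30 tested interferon-stimulated genes in the 3 comparisons, with points for the estimates (red higher, blue lower, open not passed) and bars for their standard errors. In Pt-resistant against naive cells 16 genes rose and 2 fell, and with the inhibitor 8 rose and 13 fell.

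The IFIT proteins bind viral RNA through helical repeats and block its translation. IFIT1, which binds RNA with unmethylated caps, stood at 13, 14.8 and 16.9 CPM in the naive libraries, 43.4, 64.7 and 55.3 in the Pt-resistant libraries and 8.29, 6.15 and 7.8 in the inhibitor-treated libraries. The 3 groups did not overlap, with Pt-resistant cells highest and treated cells lowest. The log2 fold change was 1.87 ± 0.13 (SE, n = 3) in Pt-resistant against naive cells (edgeR adjusted p = 1.78e-11), -2.87 ± 0.14 with the inhibitor (edgeR adjusted p = 5.38e-14) and -1.0 ± 0.15 in treated against naive cells (edgeR adjusted p = 5.00e-06). IFIT1 thus ended below its naive level. IFIT2, its partner in a complex, stood at 19, 21.2 and 17.8 CPM in naive, 52, 64.2 and 61.9 in Pt-resistant and 13.6, 15.9 and 14.8 in treated libraries. It followed the same order without overlap, with log2 fold changes of 1.62 and -2.01 in the first and second comparison (edgeR adjusted p = 2.56e-12 and 1.07e-13) and -0.39 against naive cells (edgeR adjusted p = 0.00350).

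IFIT3, which stabilizes IFIT1 on RNA, moved less. It stood at 22.6, 18.1 and 21.7 CPM in naive, 31.4, 38.4 and 31.4 in Pt-resistant and 23.7, 25.7 and 25.2 in treated libraries, and the treated libraries lay between the other groups. Its log2 fold change was 0.70 ± 0.10 in Pt-resistant cells and -0.44 ± 0.10 with the inhibitor (edgeR adjusted p = 3.78e-06 and 6.31e-04). Against naive cells it was 0.26 (edgeR adjusted p = 0.0397), a call that was lost without naive replicate 2 or 3 or treated replicate 2 or 3 (adjusted p of 0.0509 to 0.200). IFIT5, the neighbour of IFIT1 on the chromosome, stood at 4.43, 5.29 and 5.42 CPM in naive, 2.83, 5.32 and 4.42 in Pt-resistant and 4.09, 4.61 and 4.53 in treated libraries. Its groups overlapped in every comparison and none passed the test.

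The OAS enzymes make a short oligoadenylate from ATP when they bind double-stranded RNA, which sets off the breakdown of RNA. OAS1 stood at 4.94, 4.67 and 4.79 CPM in naive, 4.51, 7.4 and 4.16 in Pt-resistant and 15.4, 14.1 and 15.1 in treated libraries. All treated libraries were above both other groups, and the other groups overlapped. Its log2 fold change with the inhibitor was 1.47 ± 0.16 (edgeR adjusted p = 2.80e-08). OAS3, the longest of the family, stood at 7.16, 5.57 and 5.29 CPM in naive, 5.29, 5.86 and 4.42 in Pt-resistant and 18.1, 21.8 and 20.9 in treated libraries. It showed the same picture, and rose by 1.96 ± 0.14 on the log2 scale with the inhibitor (3.9-fold, edgeR adjusted p = 2.28e-11).

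OASL is the family member that lacks this enzyme activity and enhances signaling from the RNA sensor RIG-I. It stood at 6.48, 7.35 and 6.43 CPM in naive, 11.8, 9.69 and 10.3 in Pt-resistant and 1.36, 1.2 and 0.834 in treated libraries. No groups overlapped, and the treated libraries were lowest. Its log2 fold change was 0.65 ± 0.14 in Pt-resistant cells, -3.22 ± 0.19 with the inhibitor and -2.57 ± 0.20 in treated against naive cells (edgeR adjusted p = 3.99e-04, 1.06e-12 and 1.15e-10). The fall with the inhibitor, 9.3-fold, was the largest among the 30 genes. Counts of OAS3 per count of OASL were 0.427 to 0.604 in Pt-resistant libraries and 13.3 to 25.1 in treated libraries, a pair of genes picked for their opposite changes and given with no test. OAS2 stayed near 1 CPM, from 0.962, 1.33 and 0.935 in Pt-resistant to 1.18, 1.27 and 1.37 in treated libraries, and passed in no comparison.

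MX1 is a GTPase that traps viral nucleocapsids. It stood at 6.7, 5.91 and 6.68 CPM in naive, 5.41, 6.87 and 4.42 in Pt-resistant and 3.85, 3.87 and 4.47 in treated libraries, and the Pt-resistant libraries overlapped both other groups. The fall of -0.45 on the log2 scale with the inhibitor (edgeR adjusted p = 0.0281) no longer passed without Pt-resistant replicate 2 (-0.27, adjusted p = 0.224), treated replicate 1 (0.0870) or treated replicate 2 (0.0753). Against naive cells it was -0.66 ± 0.17 (edgeR adjusted p = 0.00199).

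**Figure D3:**
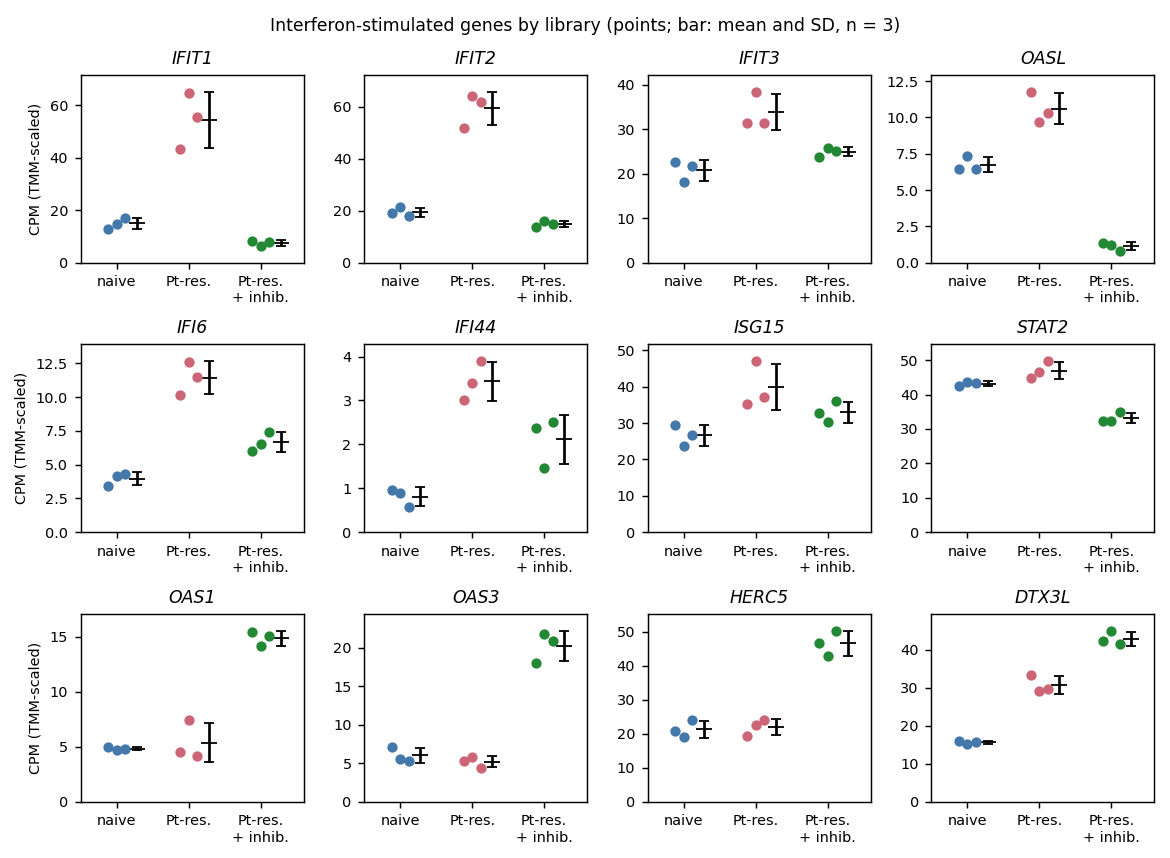
Levels of 12 of the interferon-stimulated genes in each of the 9 libraries, in CPM on axes that start at 0, with 1 point per library and bars for the mean and SD of each group of 3. IFIT1 and OASL are lowest in the inhibitor-treated libraries, whereas OAS3 and HERC5 are highest there.

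ISG15 is a ubiquitin-like protein that is joined to newly made proteins by HERC5 and removed from them by USP18, which also damps the type I receptor. ISG15 stood at 29.5, 23.6 and 26.6 CPM in naive, 35.3, 47 and 37.1 in Pt-resistant and 32.7, 30.2 and 36 in treated libraries. Its log2 fold change was 0.58 ± 0.11 in Pt-resistant cells, without overlap (edgeR adjusted p = 8.05e-05). With the inhibitor it was at -0.27 ± 0.11 (edgeR adjusted p = 0.0326) with overlapping libraries, and this no longer passed without Pt-resistant replicate 2 (-0.13, adjusted p = 0.295), treated replicate 1 (0.0771) or treated replicate 2 (0.139). Against naive cells its 0.31 (edgeR adjusted p = 0.0186) was lost without naive replicate 2 (0.0845) or treated replicate 3 (0.101).

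HERC5 moved apart from its substrate. It stood at 20.8, 19.2 and 24.1 CPM in naive, 19.4, 22.6 and 24.1 in Pt-resistant and 46.8, 43 and 50.3 in treated libraries. The naive and Pt-resistant libraries overlapped, and the treated libraries were all above them, 2.12-fold over the Pt-resistant level, with a log2 fold change of 1.08 ± 0.10 (edgeR adjusted p = 3.08e-09). USP18 stood at 3.07, 3.37 and 2.9 CPM in naive, 3.55, 4.58 and 4.16 in Pt-resistant and 4.32, 4.94 and 4.29 in treated libraries. Its Pt-resistant libraries lay above the naive ones, but the difference of 0.40 ± 0.18 missed the threshold (edgeR adjusted p = 0.0590) and passed only without Pt-resistant replicate 1 (0.48, adjusted p = 0.0412). With the inhibitor it was at 0.14 ± 0.17 and did not pass (edgeR adjusted p = 0.504). Treated cells were above naive cells by 0.54 ± 0.18 (edgeR adjusted p = 0.0124), without overlap, a call that DESeq2 did not make (adjusted p = 0.0568). In GENCODE 29, 23.4% of the 50-base stretches of USP18 occur in other genes, USP41 among them, and its counts are uncertain.

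The IFITM proteins sit in membranes and block the fusion of enveloped viruses. IFITM3, the endosomal member, stood at 232, 216 and 231 CPM in naive, 152, 158 and 151 in Pt-resistant and 232, 230.4 and 195 in treated libraries. The Pt-resistant libraries were below both other groups, which overlapped. Its log2 fold change was -0.56 ± 0.08 in Pt-resistant cells and 0.51 ± 0.08 with the inhibitor (edgeR adjusted p = 1.85e-06 and 5.72e-06), and treated cells were not distinguished from naive cells (-0.05 ± 0.08, edgeR adjusted p = 0.612). IFITM1, the surface member, stood at 2.61, 5.16 and 4.6 CPM in naive, 2.16, 2.18 and 2.91 in Pt-resistant and 9.53, 9.75 and 7.39 in treated libraries. It was highest in the treated libraries, and naive replicate 1 overlapped the Pt-resistant libraries. Its log2 fold change was -0.74 ± 0.23 in Pt-resistant cells (edgeR adjusted p = 0.00771) and 1.87 ± 0.21 with the inhibitor (edgeR adjusted p = 4.29e-08). IFITM2 stood at 33, 27.1 and 31.2 CPM in naive, 32.9, 29.1 and 29.3 in Pt-resistant and 52.7, 50.3 and 43.7 in treated libraries, and rose by 0.68 ± 0.10 with the inhibitor (edgeR adjusted p = 1.42e-06). The 3 genes are neighbours and near copies, with 9.2% to 17.4% of their 50-base stretches found in other genes, and 32.5% of the IFITM1 exon bases overlap IFITM2 on the same strand in GENCODE 29, so the split of counts among them is uncertain.

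BST2, or tetherin, holds budding virus at the cell surface. It stood at 288, 251 and 255 CPM in naive, 286, 356 and 299 in Pt-resistant and 228, 213 and 216 in treated libraries, and the treated libraries were below both other groups. With the inhibitor it was at -0.52 ± 0.09 (edgeR adjusted p = 1.32e-05). Its 0.25 in Pt-resistant cells (edgeR adjusted p = 0.0163) was lost without naive replicate 2 (adjusted p = 0.0678), naive replicate 3 (0.0638) or Pt-resistant replicate 2 (0.172), and its -0.27 against naive cells without naive replicate 1 (0.0511). RSAD2, or viperin, is a lipid-droplet enzyme that makes a chain-terminating nucleotide. It had 5, 2 and 5 counts in naive, 20, 25 and 23 in Pt-resistant and 2, 4 and 9 in treated libraries. The Pt-resistant libraries were above all others, with log2 fold changes of 2.28 ± 0.45 and -1.99 ± 0.43. The filter on low counts fixed part of these differences, so no p is given. At these counts the difference with the inhibitor ranged from -2.67 to -1.59 as single libraries were left out.

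The IFI genes are named for their induction by interferon. All 5 rose in Pt-resistant cells, beside 29.8% of all genes, but the call of IFI44L was lost in several settings, as given below. IFI6, a mitochondrial and endoplasmic reticulum protein that limits apoptosis, stood at 3.41, 4.19 and 4.28 CPM in naive, 10.2, 12.6 and 11.5 in Pt-resistant and 6.04, 6.55 and 7.45 in treated libraries. No groups overlapped, and treated cells lay between the others, with 1.54 ± 0.15 in Pt-resistant cells and -0.78 ± 0.14 with the inhibitor (edgeR adjusted p = 5.86e-09 and 3.54e-05). IFI35, a leucine-zipper protein, stood at 18.4, 16.6 and 14.9 CPM in naive, 33.7, 40.5 and 30.8 in Pt-resistant and 18.1, 17.2 and 17.7 in treated libraries. Its Pt-resistant libraries stood alone above the others, with 1.07 ± 0.11 and then -0.99 ± 0.11 (edgeR adjusted p = 1.09e-08 and 3.32e-08). Treated cells overlapped naive cells (0.09 ± 0.11, edgeR adjusted p = 0.527).

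IFI27, a small membrane protein of mitochondria and the nuclear envelope, stood at 2.16, 1.99 and 2.46 CPM in naive, 4.21, 7.19 and 5.4 in Pt-resistant and 3.85, 3.07 and 3.75 in treated libraries. It rose by 1.35 ± 0.21 in Pt-resistant cells (edgeR adjusted p = 7.16e-06). The inhibitor difference of -0.65 (edgeR adjusted p = 0.00524) no longer passed without Pt-resistant replicate 2 (-0.43, adjusted p = 0.0701). IFI44 and IFI44L, neighbouring genes, had means of 0.809 ± 0.213 and 1.11 ± 0.389 CPM (SD, n = 3) in naive cells, 3.44 ± 0.446 and 1.81 ± 0.330 in Pt-resistant cells and 2.11 ± 0.561 and 1.52 ± 0.195 in treated cells. IFI44 rose by 2.08 ± 0.28 in Pt-resistant cells (edgeR adjusted p = 7.58e-07). Its -0.69 with the inhibitor (edgeR adjusted p = 0.0120) was lost without Pt-resistant replicate 3 (0.0587) or treated replicate 2 (0.0801). IFI44L rose by 0.73 in Pt-resistant cells (edgeR adjusted p = 0.0394), a call lost without naive replicate 1 or 3 or Pt-resistant replicate 1 or 2 (adjusted p of 0.0515 to 0.224) and in 3 of the other settings tried.

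**Figure D4:**
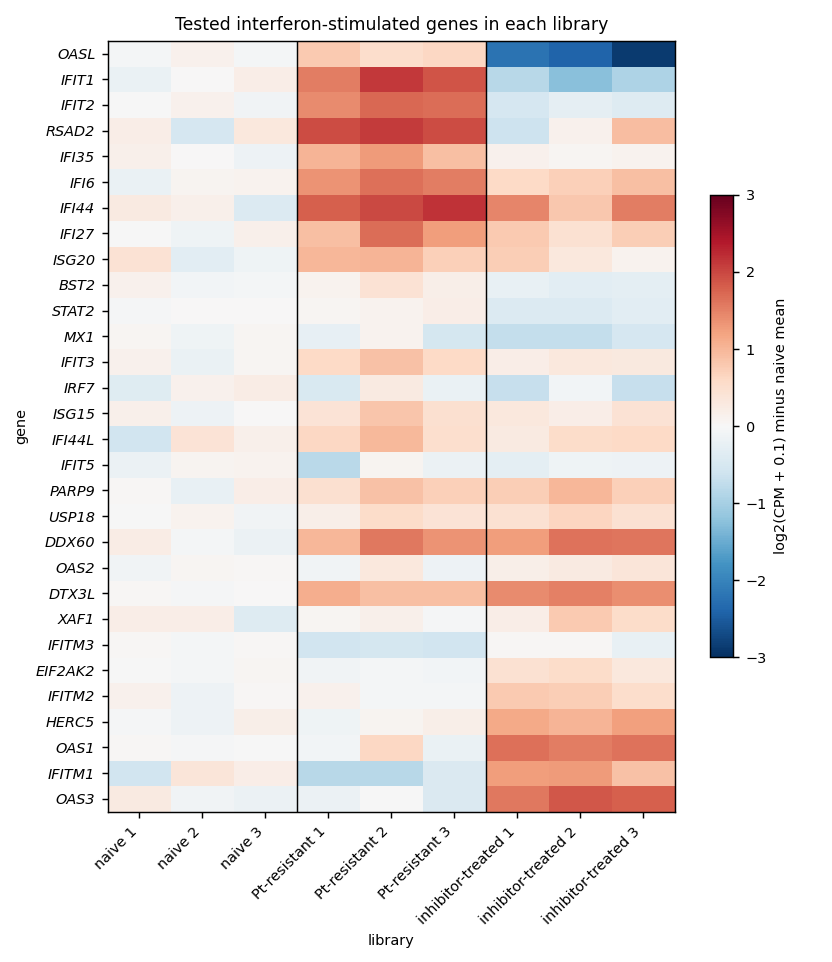
Each of the 30 tested interferon-stimulated genes in each of the 9 libraries, as the difference of log2(CPM + 0.1) from the mean of the naive libraries, on a colour scale from -3 to 3. IFIT1, IFIT2, IFI6, IFI35, IFI44 and RSAD2 are high in the Pt-resistant libraries, and OAS1, OAS3, HERC5 and IFITM1 are high in the inhibitor-treated libraries.

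The next genes act on RNA or on cell death. EIF2AK2, or PKR, is a kinase that senses double-stranded RNA and stops translation. It stood at 70.5, 67.8 and 74.3 CPM in naive, 66.3, 68.5 and 66.9 in Pt-resistant and 96.8, 103 and 88.5 in treated libraries. The naive and Pt-resistant libraries overlapped, and the treated ones were above both (0.51 ± 0.08 with the inhibitor, edgeR adjusted p = 4.58e-06). DDX60, a helicase linked to RNA sensing, stood at 5.4, 4.47 and 4.09 CPM in naive, 9.32, 14.1 and 11.9 in Pt-resistant and 11.1, 14.5 and 14.2 in treated libraries. It rose by 1.34 ± 0.16 in Pt-resistant cells (edgeR adjusted p = 2.36e-07), and with the inhibitor its libraries overlapped (0.16 ± 0.14, edgeR adjusted p = 0.332). ISG20, an RNA exonuclease, had means of 1.35 ± 0.415, 2.57 ± 0.292 and 1.78 ± 0.422 CPM (SD, n = 3) in naive, Pt-resistant and treated cells. It rose by 0.90 ± 0.26 in Pt-resistant cells (edgeR adjusted p = 0.00504), and its -0.52 with the inhibitor did not pass (edgeR adjusted p = 0.0757) unless treated replicate 1 was left out (-0.73, adjusted p = 0.0366). XAF1, a pro-apoptotic partner of XIAP, had means of 1.46 ± 0.334, 1.5 ± 0.0974 and 2.11 ± 0.441 CPM and passed in no comparison, except against naive cells without treated replicate 1 (0.68, adjusted p = 0.0471).

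PARP9 and DTX3L form a complex that adds ADP-ribose to ubiquitin and acts at DNA damage and in interferon signaling. They are neighbours read in opposite directions, and their promoter windows overlap. PARP9 stood at 20.3, 17 and 22.9 CPM in naive, 27.8, 36.6 and 32.6 in Pt-resistant and 33.4, 39.8 and 33 in treated libraries. DTX3L stood at 16, 15.3 and 15.7 CPM in naive, 33.5, 29.2 and 29.6 in Pt-resistant and 42.2, 45 and 41.5 in treated libraries. Both were above all naive libraries in the Pt-resistant group, by 0.69 ± 0.12 and 0.97 ± 0.09 on the log2 scale (edgeR adjusted p = 2.11e-05 and 5.36e-09). With the inhibitor DTX3L rose again (0.48 ± 0.09, edgeR adjusted p = 4.18e-05), while PARP9 was at 0.13 ± 0.11 and did not pass (edgeR adjusted p = 0.332).

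Among the transcription factors, STAT2, the activating part of the interferon complex, stood at 42.4, 43.8 and 43.3 CPM in naive, 44.7, 46.5 and 49.7 in Pt-resistant and 32.3, 32.4 and 34.9 in treated libraries. The treated libraries were below both other groups (-0.50 ± 0.08 with the inhibitor, edgeR adjusted p = 1.32e-05, and -0.38 ± 0.08 against naive cells, edgeR adjusted p = 3.82e-04). The Pt-resistant libraries lay above the naive ones, but the difference of 0.12 ± 0.08 did not pass (edgeR adjusted p = 0.197). IRF7, which amplifies type I interferon, had means of 1.73 ± 0.372, 1.58 ± 0.450 and 1.21 ± 0.343 CPM (SD, n = 3), overlapped between all groups and passed in no comparison.

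The GAAA pair was counted by direction of change in genes with a window, in small sets and with no test. Under the inhibitor it was present in 6 of the 7 genes that rose (85.7%) and in 9 of the 11 that fell (81.8%). It was also in 5 of the 6 that did not pass (83.3%). Among the genes that rose with the inhibitor, OAS1 had no match, and among those that fell, IFI35 and STAT2 had none. The shares were less level in the other comparisons. When Pt-resistant libraries were set against naive ones, the pair was in 13 of 14 higher genes (92.9%) and 2 of 2 lower genes. There it was in 5 of 8 that did not pass (62.5%). Between treated and naive libraries the numbers were 12 of 13 higher (92.3%), 3 of 4 lower (75.0%) and 5 of 7 not passed (71.4%).

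The other genes of the interferon pathway were read from a list of 62, of which 51 had enough counts to be tested. In Pt-resistant against naive cells 23 rose (45.1%, beside 29.8% of all genes), 12 fell (23.5%, beside 29.4%) and 16 did not pass. Those that fell numbered 9 to 12 as single libraries were left out. IRF8, SOCS1, UBA7 and BATF2 are among those that fell here and rose with the inhibitor, with few counts in the Pt-resistant libraries. The numbers were not recounted without them. With the inhibitor 27 rose (52.9%, beside 31.9%), 7 fell (13.7%, beside 30.5%) and 17 did not pass. In treated against naive cells 38 were higher (74.5%, beside 32.2%), 5 were lower (9.8%, beside 31.2%) and 8 did not pass. The median log2 fold changes were 0.26, 0.40 and 0.67, beside medians over all genes of 0.01, 0.0057 and 0.00094.

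None of the 9 ligands reached the level for a test. IFNB1, the type I interferon of most cell types, had 0, 0 and 0 counts in naive, 0, 2 and 4 in Pt-resistant and 0, 0 and 3 in treated libraries. IFNE, an interferon of the reproductive tract, had 1, 3 and 2 counts in naive, 8, 7 and 5 in Pt-resistant and 3, 3 and 7 in treated libraries, so that its Pt-resistant libraries lay above the naive ones at counts too low to test. IFNA1, IFNK, IFNW1, IFNL2 and IFNL3 were at 0 in all 9 libraries, which allows up to 0.0198 CPM for each (3 counts over all libraries), and IFNL1 and IFNG had 1 count each.

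Of the 6 receptor chains, 4 rose with the inhibitor, beside 31.9% of all genes. Against naive cells, Pt-resistant cells had 1 chain that rose and 3 that fell, beside 29.8% and 29.4% of all genes. The 3 that fell were IFNLR1 (-0.65 ± 0.14, edgeR adjusted p = 4.18e-04), IFNGR2 (-0.48 ± 0.14, edgeR adjusted p = 0.00452) and IFNAR1 (-0.22 ± 0.08, edgeR adjusted p = 0.0159). Leaving out naive replicate 3 (0.0558) or Pt-resistant replicate 3 (0.0791) ended the call of IFNAR1. IFNAR2, the high-affinity chain of the type I receptor, stood at 4.72, 4.4 and 5.48 CPM in naive, 5.23, 4.95 and 4.88 in Pt-resistant and 16.3, 14.6 and 12.3 in treated libraries, and all treated libraries were above the rest (1.52 ± 0.14, edgeR adjusted p = 1.95e-09). IFNGR2, a chain of the type II receptor, rose by 1.05 ± 0.13 with the inhibitor (edgeR adjusted p = 2.59e-07) and IFNAR1 by 0.45 ± 0.08 (edgeR adjusted p = 1.81e-05). IFNLR1, of the type III receptor, rose by 0.40 (edgeR adjusted p = 0.0184), a call lost without Pt-resistant replicate 3 (0.0657). IFNGR1 was the chain that rose in Pt-resistant cells (0.54 ± 0.09, edgeR adjusted p = 1.06e-05) and was at -0.00 ± 0.08 with the inhibitor. IL10RB did not pass in either comparison (0.86 and 0.27).

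Of the kinases, JAK2 was higher in Pt-resistant than in naive cells (log2 fold change 0.56 ± 0.11, edgeR adjusted p = 1.82e-04), and TYK2 had a log2 fold change of -0.25 ± 0.08 with the inhibitor (edgeR adjusted p = 0.00620). JAK1 did not pass with the inhibitor (0.17, edgeR adjusted p = 0.0701) except without treated replicate 1 (0.22, adjusted p = 0.0376).

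Of the other interferon regulatory factors of the list, IRF1, IRF2, IRF3 and IRF5 rose with the inhibitor, beside 31.9% of all genes. In Pt-resistant against naive cells IRF1 rose and IRF3 fell, beside 29.8% and 29.4%. IRF8 is left out of both statements for its low counts and is described below. IRF1, an early transcription factor of the interferon response, stood at 21.6, 21.1 and 19.2 CPM in naive, 26.6, 32.8 and 25.5 in Pt-resistant and 46.3, 48 and 41.6 in treated libraries, without overlap (0.45 ± 0.10 and 0.68 ± 0.10, edgeR adjusted p = 6.43e-04 and 2.70e-06). IRF3, which turns on type I interferon after viral sensing, was lower in Pt-resistant than in naive cells and rose with the inhibitor (log2 fold changes -0.76 ± 0.08 and 0.48 ± 0.08, edgeR adjusted p = 5.15e-08 and 3.45e-05). IRF8 had 10, 10 and 18 counts in naive, 1, 0 and 2 in Pt-resistant and 7, 12 and 5 in treated libraries. It was at the level of the filter in 3 naive, 0 Pt-resistant and 1 treated library, and so entered the test through the naive group. Its log2 fold changes of -3.68 ± 0.69 and 3.01 ± 0.76 rest on 0 to 2 counts in the Pt-resistant libraries. They are given as a description with no p. IRF8 is included in the counts of the wider list, which were not made again without it. The mean of IRF5 was 2.33 ± 0.0865 CPM (SD, n = 3) under DMSO and 5.23 ± 0.305 CPM under the inhibitor. All 3 genes listed under ISG15 conjugation (UBA7, UBE2L6 and HERC6) rose with the inhibitor, and 2 of them had fallen in Pt-resistant cells, beside 31.9% and 29.4% of all genes. UBA7, counted in both, had 29, 20 and 37 counts in naive, 6, 8 and 12 in Pt-resistant and 59, 36 and 38 in treated libraries. It was at the level of the filter in 3 naive, 1 Pt-resistant and 3 treated libraries, so its entry into the test rested mainly on groups where it is higher. The heading is that of the list, and the activity of these genes was not measured. UBE2L6, the conjugating enzyme, stood at 24.9, 19.5 and 19.7 CPM in naive, 15, 16 and 12.4 in Pt-resistant and 43.8, 37.6 and 35.3 in treated libraries, and its Pt-resistant libraries were the lowest and its treated libraries the highest (-0.57 ± 0.12 and 1.43 ± 0.12, edgeR adjusted p = 2.89e-04 and 2.73e-10). Of the 4 negative regulators, 3 fell in Pt-resistant cells, beside 29.4% of all genes. With the inhibitor 2 of the 4 rose, beside 31.9%. SOCS1 is counted in both. It had 32, 23 and 27 counts in naive, 5, 10 and 9 in Pt-resistant and 16, 15 and 29 in treated libraries. SOCS1 was at the level of the filter in 3 naive, 0 Pt-resistant and 3 treated libraries. Its entry into the test thus rested on groups where it is higher. Leaving out naive replicate 3 or Pt-resistant replicate 2 ended the Pt-resistant calls of SOCS3 and PTPN2 (adjusted p of 0.0807 to 0.102), and leaving out naive replicate 1 (0.0649) or Pt-resistant replicate 3 (0.126) ended that of PTPN2.

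Of 31 other interferon-induced genes, 29 were tested. In Pt-resistant cells 19 rose (65.5%, beside 29.8% of all genes) and 2 fell (6.9%, beside 29.4%). With the inhibitor 12 rose (41.4%, beside 31.9%) and 6 fell (20.7%, beside 30.5%). IFI16, a nuclear DNA sensor, stood at 17.5, 19.7 and 19.6 CPM in naive, 133, 146 and 139.8 in Pt-resistant and 94.6, 106 and 117 in treated libraries (2.88 ± 0.09 and -0.40 ± 0.08, edgeR adjusted p = 2.02e-17 and 1.97e-04). It was far above naive cells in all Pt-resistant and treated libraries. The guanylate-binding proteins GBP1 and GBP3 are GTPases of cell-autonomous immunity. GBP1 stood at 7.73, 8.45 and 7.81 CPM in naive, 7.63, 7.29 and 7.95 in Pt-resistant and 30.7, 33.9 and 30.7 in treated libraries, and rose with the inhibitor (2.06 ± 0.11, edgeR adjusted p = 9.71e-14). GBP3 rose in each step (1.22 ± 0.13 and 1.70 ± 0.11, edgeR adjusted p = 1.92e-08 and 2.89e-12). The neighbouring paralogs SAMD9 and SAMD9L, which restrict poxviruses, both rose in Pt-resistant cells (1.12 and 2.77, edgeR adjusted p = 7.38e-06 and 8.20e-11). With the inhibitor SAMD9 rose by 1.34 ± 0.14 and SAMD9L was at -1.24 ± 0.18 (edgeR adjusted p = 1.70e-08 and 1.77e-06).

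**Figure D5:**
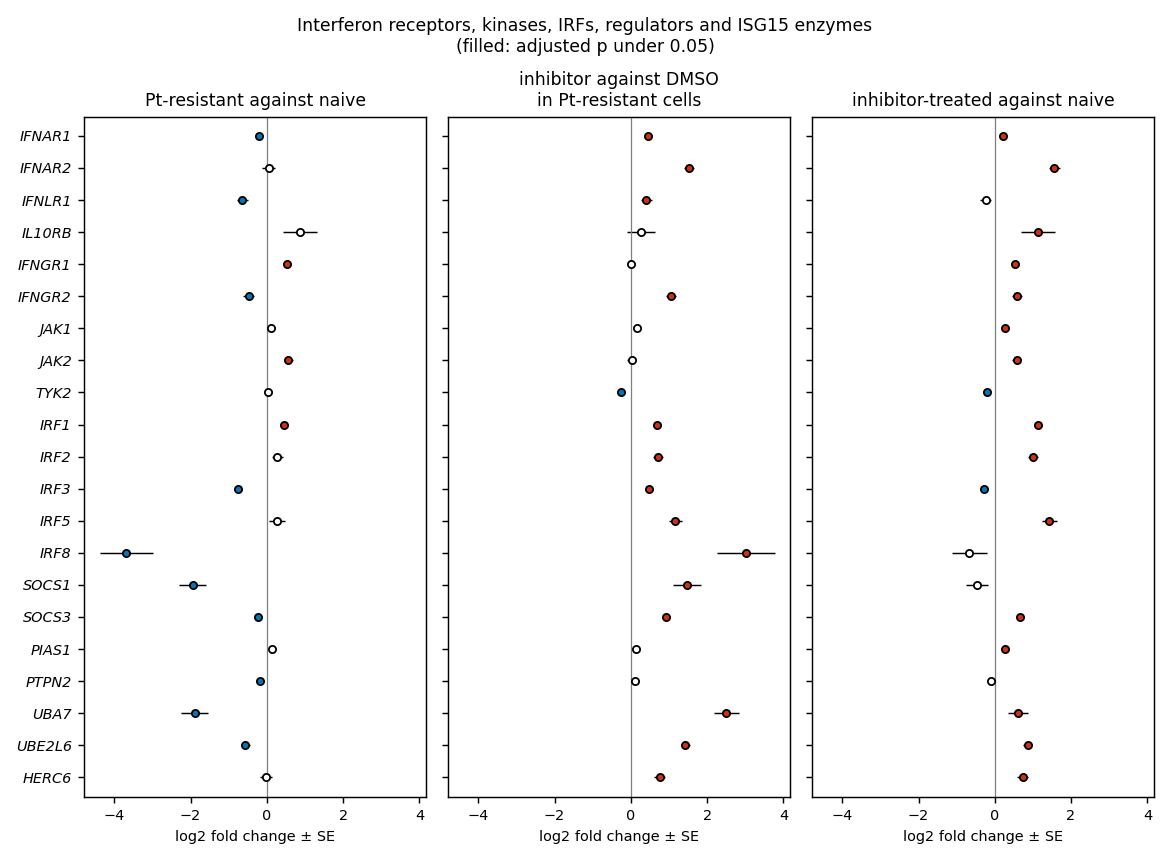
Log2 fold changes of the interferon receptor chains, kinases, other IRFs, negative regulators and genes listed under ISG15 conjugation in the 3 comparisons, with points for the estimates (red higher, blue lower, open not passed) and bars for their standard errors. With the inhibitor 4 of 6 receptor chains rose, as did IRF1, IRF2, IRF3 and IRF5, and the points of IRF8 rest on low counts.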

How the data were processed

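According to the study's methods, reads passed a FastQC check, were aligned by STAR with its option for counting genes, and were joined to a table of raw counts per gene, which the authors deposited. The library kit marks the strand. Tool versions, genome build, annotation and strand column were not given in the sources used here. This way of counting leaves out reads that overlap more than 1 gene or map to several places. Sample groups came from the labels.

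Ensembl IDs were matched to symbols for 61369 of 61487 genes. The counts were tested with edgeR 4.0.16 under R 4.3.3. Genes kept by filterByExpr (minimum count 10) numbered 14630 and held 99.88% of counts. Libraries were scaled by TMM, and 1 quasi-likelihood fit over all 9 libraries gave the 3 comparisons, adjusted by Benjamini-Hochberg at 0.05. The study used DESeq2, which served as an alternative here (version 1.42.0, with limma 3.58.1 for voom). A standard error was taken as the log2 fold change over the square root of its F statistic, without sign. Genes varied between libraries of a group by 7.66% (biological coefficient of variation). Each library held 14320929 to 19114811 counts, which limits the precision, and floors of 3 counts cover counting error only. The fit was tested on simulated data with known changes. The alternatives tried are listed in the closing section.

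The genes, lists and the rule for naming were chosen with earlier results of these data known. Genes of the group with at least 5 CPM in the highest group were given per library, and of the wider pathway those with at least a 2-fold called change and 5 CPM, plus ligands, receptors and kinases. Some genes of the wider pathway are not reported here by name. Promoters came from RefSeq on GRCh38.p14 and exon overlaps from GENCODE 29, by gene ID. For 33 of the 36 windows the last 20 bases lay in a GENCODE 29 transcript of the gene.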

Additional observations from a re-analysis of the deposited data

How the results depend on the processing

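The numbers of interferon-stimulated genes that rose or fell, and their medians, were recomputed with size-factor (RLE) scaling, library size alone, DESeq2, limma-voom, no filter, a filter of 1 CPM in 3 libraries, a fit of the compared groups alone, a block for the replicate number, and each library left out. In the first comparison the genes that rose numbered 14 to 16 when 1 library was left out, and the median ranged from 0.37 to 0.52. With the inhibitor the genes that fell numbered 10 to 13, and the median ranged from -0.34 to -0.11. The numbers 14 and 10 and the medians 0.37 and -0.11 came without Pt-resistant replicate 2, and the cause was not tested. No setting named above moved a number of calls of the group by more than 1.5 times. DESeq2 ended 6 single calls (IFI44L, then MX1, ISG15 and IFI44 with the inhibitor, then IFIT3 and USP18 against naive cells), and no setting reversed a call. Replicate numbers did not pair the samples, as same-numbered libraries had correlations of deviations from -0.0758 to 0.0995. With the replicate block, calls in Pt-resistant against naive cells numbered 16 higher and 2 lower. With this block the inhibitor gave 8 higher and 12 lower, ISG15 being lost (adjusted p = 0.0509), and a median of -0.25. Leaving out RSAD2, a choice made after seeing the data, kept the numbers within 1.5 times and the medians at 0.40, -0.25 and 0.44. MX2, CMPK2 and the ligands had too few counts to be tested.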

Other observations

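Several genes of the group are neighbours on the chromosome in RefSeq on GRCh38.p14, with no protein-coding gene between them, and some neighbours had different values under the inhibitor. IFIT1 lies next to IFIT5, and IFIT1 per IFIT5 was 2.81 to 3.13 counts in naive libraries, 12.2 to 15.4 in Pt-resistant libraries and 1.33 to 2.03 in inhibitor-treated libraries. OAS1, OAS3 and OAS2 lie in a row, and the first 2 rose with the inhibitor while OAS2 did not pass. HERC5 per ISG15, which are on different chromosomes, was 0.480 to 0.650 in Pt-resistant libraries and 1.40 to 1.43 in treated libraries. For both ratios the groups named did not overlap. The ratios were chosen after their values were seen and are given with no test.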
